A study of Sus scrofa with 10 samples.

Results

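The genes described here encode the organic ion carriers of the SLC22A, SLCO, SLC47A and SLC10A families and the ATP-driven pumps of the ABCA, ABCB, ABCC and ABCG subfamilies. They were chosen by name, as rows of the deposited gene table whose identifier maps to a pig symbol with one of these prefixes. The choice left out 1 ABCA gene and was made with earlier results of these data known. This gave 70 of the 25880 genes, 35 solute carriers and 35 ABC genes. By family they were 17 SLC22A, 10 SLCO, 2 SLC47A, 6 SLC10A, 10 ABCA, 9 ABCB, 11 ABCC and 5 ABCG genes. RNA was sequenced from liver, kidney, heart, the muscles longissimus dorsi and psoas major, lung, spleen, ovary and subcutaneous fat (adipose tissue) of pigs of the Northeast Min breed, a domestic pig, at 60 days of age. Each tissue gave 1 library, so differences between tissues have no replicate check, no error and no p-value, and the number of animals behind the libraries is not given in the labels. A pooled library of several tissues was left out of the comparisons.

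Organic ion carriers move drugs, toxins and metabolites across cell membranes down their gradients or in exchange for other ions. In liver and kidney most of them serve uptake from blood, while the SLC47A carriers export. ABC transporters use ATP to push bile salts, lipids, conjugates and drugs out of cells or into organelles, which adds to export into bile and urine. Members of both kinds decide how long many medicines stay in the body, and several ABC genes instead serve lipid traffic, mitochondria or potassium channels.

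Values are read as FPKM (fragments scaled for transcript length and library size), which is a level per length and so can be compared between genes. The summed FPKM of the 9 libraries ran from 292495 to 369254. The most frequent spacing between low values of short genes gives a depth of about 11500000 to 31400000 fragments, uncertain by a factor of 2. All matched members of the marker lists for hepatocytes (5 genes), proximal tubule (4), cardiomyocytes (3), skeletal myofibres (4), adipocytes (4), alveolar type 2 cells (4), B cells (4) and oocytes (4) were highest in the tissue that the label gives. The oocyte marker GDF9 was also at 18.6 FPKM in heart against 29.9 in ovary. Some other lists were less uniform. Of the T and NK cell markers 3 were highest in spleen and NKG7 in lung. Macrophage markers were highest in lung, spleen or liver. Of the granulosa markers 3 were highest in ovary and FOXL2 was listed at 0 in every tissue. In bulk tissue, fewer cells of a type and less RNA per cell cannot be told apart. Hepatocyte transcripts were also present at a low level in adipose tissue and longissimus, with ALB at 127 and 25.0 FPKM against 30453 in liver.

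A gene was called detected at 1 FPKM or more. Of the 70 transporter genes 59 were detected in at least 1 tissue, which is 84.3%, against 60.4% of all genes in the table. The most were detected in kidney, 41 genes or 58.6%, where 46.0% of all genes were detected. Ovary followed with 38 (all genes 50.9%), lung with 34 (49.4%), liver with 32 (37.9%), spleen with 30 (46.4%) and adipose tissue with 29 (44.1%). Heart had 28 (41.6%), psoas 26 (39.6%) and longissimus 25 (37.1%). In ovary, lung, spleen, adipose tissue, heart and the muscles the share of transporter genes detected (35.7% to 54.3%) was within a few points of that of all genes. The summed level of the 70 genes was 1403 FPKM in kidney, 0.480% of that library, and 1316 FPKM in liver, 0.389%. It lay between 114 FPKM in longissimus and 359 in ovary in the other tissues, or 0.0309% to 0.117%. Solute carriers made up 1142 FPKM of the kidney sum and 882 of the liver sum, but 20.5 of the sum in longissimus, where ABC genes held 93.7.

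**Figure D1:**
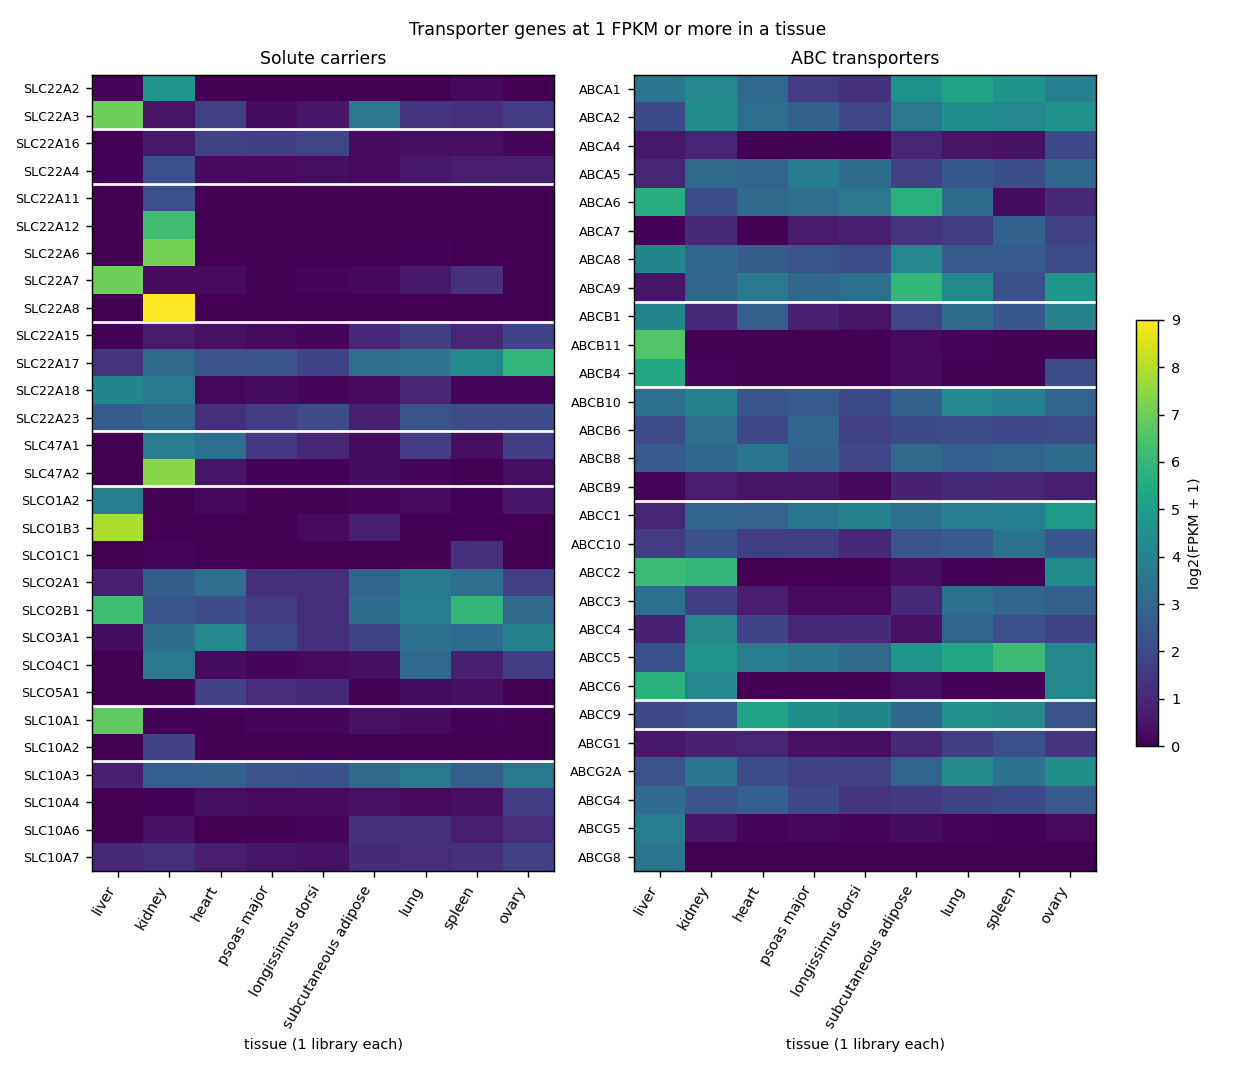
Level of 57 transporter genes detected in a tissue (rows, split into solute carriers and ABC genes, white lines between functional groups) in the 9 tissue libraries (columns), coloured by log2(FPKM + 1). Bright cells fall mostly in liver and kidney among solute carriers, led by SLC22A8 in kidney (506 FPKM), while most ABC rows carry colour across many tissues.

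The solute carriers were found in fewer tissues than the ABC genes. Of the 30 solute carriers detected, 13 were detected in exactly 1 tissue and 2, SLC22A17 and SLCO2B1, in all 9. Of the 29 ABC genes detected, 5 were detected in exactly 1 tissue and 12 in all 9. Among all detected genes 10.9% were found in exactly 1 tissue and 49.0% in all 9. The median number of tissues was 2 for the solute carriers, 8 for the ABC genes and 8 for all detected genes. The tissue specificity index tau, which runs from 0 for an even level to 1 for a gene of a single tissue, had medians of 0.823, 0.439 and 0.410 for the same 3 sets. Mitochondrial and lysosomal ABCB genes were the most even group with a median tau of 0.273, and organic anion carriers of the SLC22A family the least even, at 0.999. These figures describe detected genes. The 11 genes under 1 FPKM in every tissue were ABCA12, ABCA13, ABCB5, ABCC8, ABCC11, ABCC12, SLC22A13, SLC22A14, SLC22A20, SLCO4A1 and SLCO6A1.

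**Figure D2:**
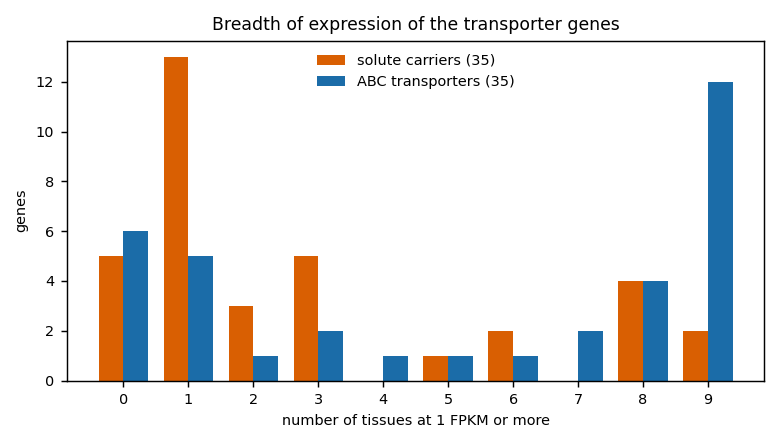
Number of tissues in which each transporter gene reached 1 FPKM (horizontal axis) and number of genes (vertical axis), for 35 solute carriers and 35 ABC genes. The solute carriers peak at 1 tissue (13 genes) and the ABC genes at 9 tissues (12 genes).

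For comparisons of level the pair of skeletal muscles was averaged, which gave 8 tissue classes, and 59 transporter genes and 15623 genes in all reached 1 FPKM in a class. The highest class was liver for 17 transporter genes (background 5.68% of all genes) and kidney for 14 (13.0%). It was ovary for 9 (29.0%), spleen for 5 (19.2%), lung for 4 (15.1%), adipose tissue for 4 (6.73%), heart for 4 (7.05%) and skeletal muscle for 2 (4.29%). Liver therefore held 28.8% of the transporter genes and kidney 23.7%, and the shares of spleen, lung and ovary were below those of all genes. Enrichment in a class meant that no other class came within 5-fold of the FPKM + 1 there. By that rule 14 transporter genes were enriched in a class, where 6.50% of all genes were. Of these, 9 were enriched in liver (background 1.51%) and 5 in kidney (1.04%). No transporter gene was enriched in ovary, lung, skeletal muscle, spleen, heart or adipose tissue, where the backgrounds were 1.47%, 0.736%, 0.621%, 0.429%, 0.346% and 0.346%. The 5 enriched kidney genes were solute carriers, and the 9 liver genes were 5 solute carriers and 4 ABC genes.

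**Figure D3:**
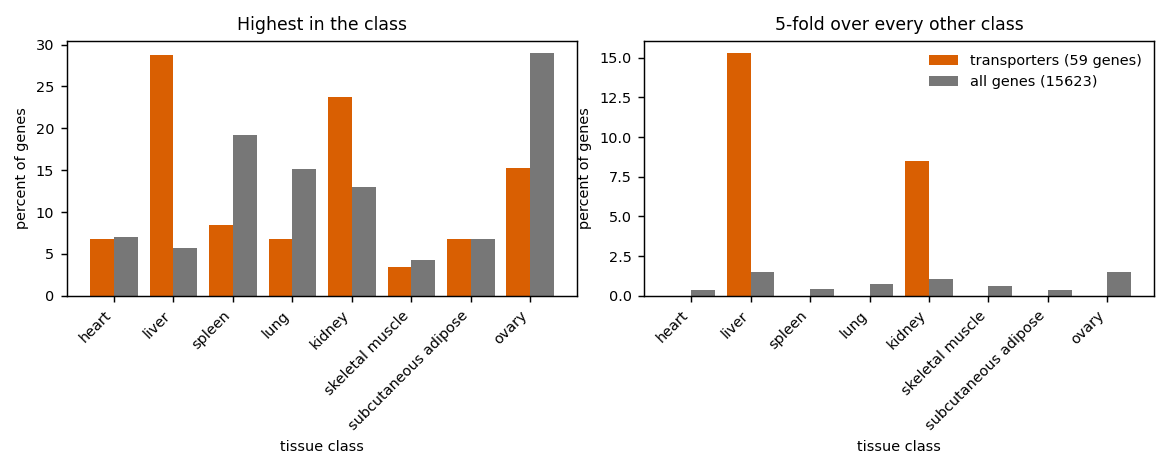
Percent of the 59 transporter genes (orange) and of all 15623 genes (grey) that were highest in each tissue class (left) or enriched there by 5-fold over every other class (right). Liver and kidney stand above the background in both panels, with 28.8% and 23.7% of transporter genes highest there.

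Among the organic cation carriers, SLC22A2 was a kidney gene and SLC22A3 a liver gene. SLC22A2 (OCT2), which takes up cations at the basolateral side of the proximal tubule (ENSSSCG00000004040, chromosome 1, 7289170 to 7323644, plus strand), stood at 25.6 in kidney, 0.153 in spleen, 0.0939 in liver, 0.0154 in lung, 0.0135 in adipose tissue and 0 in heart, psoas, longissimus and ovary. It was enriched in kidney, and outside kidney it did not exceed 0.153 FPKM. SLC22A3 (OCT3), a carrier of monoamines and other cations (ENSSSCG00000004039, chromosome 1, 7108101 to 7207402, minus strand), stood at 128 in liver, 11.0 in adipose tissue, 2.35 in heart, 1.98 in ovary, 1.64 in lung, 1.37 in spleen, 0.461 in longissimus, 0.381 in kidney and 0.235 in psoas.

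SLC22A3 was enriched in liver and had its next level in adipose tissue, at 8.61% of the liver value. The hepatocyte markers ALB, APOC3, AHSG, TTR and FGB were at 0.257% to 0.469% of their liver values in adipose tissue. The 3′ end of the SLC22A3 gene model overlaps that of PLG, the plasminogen gene on the opposite strand, by 1431 bases. PLG was at 1547 FPKM in liver and 3.35 in adipose tissue, and was listed at 0 in heart, spleen and lung, where SLC22A3 was at 2.35, 1.37 and 1.64. The strand setting of the counting is not given, and the part of PLG reads in the SLC22A3 value was not tested.

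The organic anion carriers of the SLC22A family were mostly kidney genes. SLC22A8 (OAT3), which takes up anionic drugs from blood into the proximal tubule (ENSSSCG00000029516, chromosome 2, 8781965 to 8805394, plus strand), was the highest transporter gene in any tissue. Its values were 506 in kidney, 0.0192 in lung, 0.0148 in heart, 0.00277 in ovary, 0.00106 in psoas, 0.000298 in adipose tissue and 0 in liver, spleen and longissimus. SLC22A6 (OAT1), its partner in uptake and the classical carrier of para-aminohippurate (ENSSSCG00000023571, chromosome 2, 8809547 to 8817124, plus strand), stood at 138 in kidney, 0.0682 in lung, 0.0111 in ovary and 0 in heart, liver, spleen, psoas, longissimus and adipose tissue. SLC22A12 (URAT1), the urate carrier of the apical tubule membrane (ENSSSCG00000013025, chromosome 2, 7555821 to 7565895, minus strand), stood at 74.7 in kidney and 0 in heart, liver, spleen, lung, psoas, longissimus, adipose tissue and ovary. All of these were enriched in kidney and none exceeded 0.0682 FPKM elsewhere. SLC22A11 (OAT4) followed the same pattern at a low level, with 3.59 in kidney and 0 listed for the other 8 tissues, and at 4.59-fold over the next class on the FPKM + 1 scale it missed the 5-fold threshold.

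SLC22A7 (OAT2), an anion and nucleotide carrier of the hepatocyte basolateral membrane in humans, was the liver member of the anion group (ENSSSCG00000027796, chromosome 7, 38328473 to 38335279, plus strand). It stood at 129.5 in liver, 1.35 in spleen, 0.527 in lung, 0.209 in heart, 0.188 in kidney, 0.156 in adipose tissue, 0.0847 in longissimus, 0.0460 in psoas and 0 in ovary. Its kidney level was 0.145% of that in liver, and its log2 difference of kidney minus liver was -6.78. SLC22A13 and SLC22A20, the remaining anion carriers, stayed under 1 FPKM, with highest values of 0.175 in kidney and 0.109 in adipose tissue. The SLC22A13 gene model contains XYLB, which stood at 31.0 in kidney and 29.2 in liver, where SLC22A13 was at 0.175 and 0.0651.

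The carnitine and ergothioneine carriers were low. SLC22A4, the ergothioneine carrier, was at 3.57 in kidney and 0.679 in ovary, the next tissue. SLC22A16, a carnitine carrier known from human testis, was at 2.69 in longissimus, 2.41 in heart and 2.18 in psoas, and at most 0.525 elsewhere, so that the 3 muscle libraries stood together above the rest. SLC22A5 (OCTN2), the main carnitine carrier, has no row of its own among the named genes. Its RefSeq interval overlaps the gene model named RAD50, whose row was highest in kidney at 44.4 FPKM, followed by ovary at 29.7, and the parts of the genes in that value cannot be told apart here.

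Among the other SLC22A genes, SLC22A17, a receptor for lipocalin 2, a protein that binds iron carriers (ENSSSCG00000002025, chromosome 7, 75734875 to 75741128, plus strand), was the top transporter gene in ovary. It stood at 57.6 in ovary, 18.7 in spleen, 9.85 in lung, 8.21 in adipose tissue, 7.72 in kidney, 4.0 in psoas, 3.94 in heart, 2.54 in longissimus and 1.53 in liver. Ovary was 2.97-fold above spleen, the next class, on the FPKM + 1 scale, so the gene was not called enriched. SLC22A18, whose substrates are not well known, was a gene of liver and kidney with 16.6 in liver, 11.3 in kidney, 0.936 in lung, 0.238 in psoas, 0.177 in adipose tissue, 0.152 in heart, 0.125 in ovary, 0.121 in spleen and 0.0966 in longissimus. SLC22A23 was at 7.07 in kidney and 5.15 in liver, an order that turned under median-of-ratios and quantile scaling, and SLC22A15 was at 2.54 in ovary and 2.3 in lung. SLC22A14 did not exceed 0.0734 FPKM.

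The multidrug and toxin extrusion genes of the SLC47A family, which export cations into urine and bile in exchange for protons, were highest in kidney. SLC47A2 (MATE2) (ENSSSCG00000018042, chromosome 12, 59920770 to 59935894, plus strand) stood at 170.0 in kidney, 0.426 in heart, 0.265 in ovary, 0.220 in adipose tissue, 0.116 in lung, 0.0557 in longissimus, 0.0548 in psoas, 0.0450 in liver and 0 in spleen. SLC47A1 (MATE1) (ENSSSCG00000033329, chromosome 12, 60019858 to 60056951, minus strand) stood at 12.9 in kidney, 8.8 in heart, 2.21 in ovary, 1.98 in lung, 1.8 in psoas, 0.964 in longissimus, 0.247 in spleen, 0.215 in adipose tissue and 0.0169 in liver. SLC47A2 was enriched in kidney, and SLC47A1 was not. SLC47A1, which in human liver exports cations into bile, was at 0.0169 FPKM in pig liver and had its next level in heart.

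The SLCO genes encode organic anion transporting polypeptides. They included liver genes, broad genes and genes detected in few tissues outside liver. SLCO1B3 (OATP1B3), which clears bile acids, bilirubin and statins from blood into hepatocytes in humans (ENSSSCG00000021998, chromosome 5, 52138979 to 52206178, minus strand), was the highest transporter gene in liver. It stood at 239 in liver, 0.661 in adipose tissue, 0.161 in longissimus, 0.00401 in lung and 0 in heart, spleen, kidney, psoas and ovary. SLCO1A2 (ENSSSCG00000000584, chromosome 5, 52020349 to 52131767, plus strand) was a lower liver gene with 13.3 in liver, 0.458 in ovary, 0.210 in lung, 0.146 in heart, 0.0915 in adipose tissue, 0.0758 in spleen, 0.0375 in kidney, 0.0297 in longissimus and 0.0201 in psoas. Both were enriched in liver. In adipose tissue SLCO1B3 was at 0.277% of its liver level and SLCO1A2 at 0.690%, where the 5 hepatocyte markers were at 0.257% to 0.469%. SLCO1C1, a thyroxine carrier of brain vessels, was at 1.35 in spleen and at most 0.117 in kidney, the next tissue.

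SLCO2B1 (OATP2B1), a broad carrier of steroid sulfates (ENSSSCG00000014851, chromosome 9, 9442669 to 9472619, plus strand), stood at 72.6 in liver, 60.9 in spleen, 12.9 in lung, 8.08 in adipose tissue, 7.61 in ovary, 4.18 in kidney, 3.37 in heart, 2.08 in psoas and 1.28 in longissimus. It was detected in all 9 tissues, and liver and spleen stood apart from the rest, with lung next at 12.9. SLCO2A1, the prostaglandin carrier, stood at 11.7 in lung, 8.53 in spleen, 8.32 in heart, 6.37 in adipose tissue, 5.29 in kidney, 2.44 in ovary, 1.42 in psoas, 1.32 in longissimus and 0.729 in liver. Its order of lung over heart turned under median-of-ratios and quantile scaling. SLCO3A1 was a gene of heart and ovary with 17.5 in heart, 14.7 in ovary, 8.69 in lung, 8.04 in kidney, 7.9 in spleen, 2.89 in psoas, 2.51 in adipose tissue, 1.35 in longissimus and 0.242 in liver. SLCO4C1, which in human kidney takes up digoxin and uraemic toxins (ENSSSCG00000014182, chromosome 2, 107817177 to 107887399, minus strand), stood at 11.3 in kidney, 7.33 in lung, 2.13 in ovary, 0.748 in spleen, 0.301 in adipose tissue, 0.228 in heart, 0.178 in longissimus, 0.0836 in psoas and 0.0239 in liver, with lung as the next tissue. SLCO5A1 was at 2.39 in heart and 1.2 in psoas and at most 0.295 outside the muscle libraries. SLCO4A1 reached 0.962 in kidney and SLCO6A1 0.152 in adipose tissue.

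Bile acids circulate between liver and gut, and genes of both their uptake and their export stood out in liver. SLC10A1 (NTCP), the sodium-driven uptake carrier of hepatocytes (ENSSSCG00000002313, chromosome 7, 93324366 to 93421776, minus strand), stood at 113 in liver, 0.330 in adipose tissue, 0.213 in lung, 0.105 in psoas, 0.0989 in longissimus, 0.0650 in spleen, 0.0606 in kidney, 0.0255 in heart and 0.0245 in ovary. ABCB11, the bile salt export pump of the canalicular membrane (ENSSSCG00000015926, chromosome 15, 75286594 to 75565602, minus strand), stood at 92.0 in liver, 0.161 in adipose tissue, 0.0884 in lung, 0.0294 in ovary, 0.0268 in longissimus, 0.0227 in kidney and 0 in heart, spleen and psoas. ABCB4, which moves phosphatidylcholine into bile (ENSSSCG00000024520, chromosome 9, 93171718 to 93260768, plus strand), stood at 42.2 in liver, 3.32 in ovary, 0.179 in adipose tissue, 0.0896 in kidney, 0.0365 in longissimus, 0.0179 in spleen, 0.0151 in lung, 0.0118 in heart and 0 in psoas. All of these were enriched in liver, and ABCB4 alone of them was detected in another tissue, in ovary at 3.32 FPKM. The gene models of ABCB11 and SLC10A1 contain NOSTRIN and SRSF5, which were expressed in all 9 tissues and reached 19.3 and 56.7 in lung. ABCB11 and SLC10A1 were at 0.0884 and 0.213 there, and outside liver they did not exceed 0.161 and 0.330, both in adipose tissue. ABCB11 also overlaps LRP2 by 3366 bases, and LRP2 was at 537 in kidney, where ABCB11 was at 0.0227. SLC10A2 (ASBT), the uptake carrier of ileum and proximal tubule, was at 2.33 in kidney and 0.0484 in psoas, the next tissue.

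The other SLC10A genes had their highest level outside liver as deposited. SLC10A3 stood at 11.6 in ovary, 11.1 in lung, 7.74 in adipose tissue, 6.0 in heart, 5.6 in spleen, 5.42 in kidney, 3.97 in psoas, 3.8 in longissimus and 0.741 in liver. It was lowest in liver, and its order of ovary over lung turned under median-of-ratios and quantile scaling. SLC10A4, known from neuronal vesicles, was at 2.1 in ovary and 0.320 in adipose tissue. SLC10A6, a carrier of sulfated steroids, was at 1.46 in adipose tissue, 1.31 in lung and 1.22 in ovary. SLC10A7 was at 2.43 in ovary and 1.41 in spleen, and liver took the lead after median-of-ratios or quantile scaling.

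ABCB1 (P-glycoprotein), the multidrug pump that also guards the blood-brain barrier (ENSSSCG00000015390, chromosome 9, 93050111 to 93146460, plus strand), was broader than its neighbour ABCB4. It stood at 16.6 in liver, 14.2 in ovary, 8.03 in lung, 5.55 in heart, 4.5 in spleen, 2.67 in adipose tissue, 1.06 in kidney, 0.787 in psoas and 0.404 in longissimus. Kidney, where the human gene lines the apical tubule, was near the low end, and the log2 difference of kidney minus liver was -3.09. ABCB5 was at most 0.0549 FPKM in ovary.

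The ABCC genes include exporters of conjugated metabolites, and ABCC2 and ABCC6 were detected in the same 3 tissues. ABCC2 (MRP2), the canalicular and tubular exporter of glucuronides (ENSSSCG00000010543, chromosome 14, 110955698 to 111033321, plus strand), stood at 70.9 in liver, 60.1 in kidney, 19.2 in ovary, 0.277 in adipose tissue, 0.0698 in lung, 0.0282 in spleen, 0.0253 in longissimus and 0 in heart and psoas. ABCC6, whose loss causes ectopic mineralisation in humans (ENSSSCG00000007873, chromosome 3, 28260369 to 28356699, plus strand), stood at 52.3 in liver, 17.6 in kidney, 17.2 in ovary, 0.260 in adipose tissue, 0.0631 in lung, 0.0318 in spleen, 0.0296 in longissimus and 0 in heart and psoas. Both were highest in liver and were below 0.3 FPKM in the other 6 tissues. In ovary the 5 hepatocyte markers summed to 3.74 FPKM and the 4 proximal tubule markers to 7.15, against 51707 in liver and 1352 in kidney. ABCC2 and ABCC6 alone were at 19.2 and 17.2 in ovary. The ABCC6 gene model overlaps an unnamed opposite-strand model by 758 bases, which was expressed in all tissues (6.30 to 36.5 FPKM), including the 6 where ABCC6 was below 0.3.

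ABCC5, an exporter of cyclic nucleotides (ENSSSCG00000011782, chromosome 13, 121868611 to 122059398, minus strand), was the top transporter gene in spleen and in lung. It stood at 70.3 in spleen, 41.0 in lung, 24.9 in kidney, 24.6 in adipose tissue, 16.9 in ovary, 12.6 in heart, 10.1 in psoas, 7.63 in longissimus and 3.77 in liver. ABCC1 (MRP1), the exporter of glutathione conjugates and leukotriene C4 (ENSSSCG00000007874, chromosome 3, 28360872 to 28485842, minus strand), stood at 28.1 in ovary, 14.0 in longissimus, 13.7 in spleen, 13.4 in lung, 10.4 in psoas, 8.66 in adipose tissue, 6.67 in kidney, 6.1 in heart and 0.946 in liver. Liver was its lowest tissue, and ovary was its highest in these values and under quantile and equal-sum scaling, while skeletal muscle was highest after median-of-ratios scaling. ABCC4 (MRP4), a cyclic nucleotide and urate exporter of the apical tubule (ENSSSCG00000026996, chromosome 11, 64086662 to 64309389, minus strand), stood at 17.8 in kidney, 6.34 in lung, 3.6 in spleen, 2.56 in ovary, 2.47 in heart, 1.1 in longissimus, 1.04 in psoas, 0.840 in liver and 0.308 in adipose tissue. ABCC3 was at 8.88 in liver and 8.68 in lung, an order that turned when libraries were scaled to an equal sum, and ABCC10 at 9.3 in spleen and 5.02 in lung. ABCC11 did not exceed 0.257, in adipose tissue, and ABCC12 did not exceed 0.0312, in ovary.

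The sulfonylurea receptors are ABC proteins that form the regulatory part of ATP-sensitive potassium channels rather than pumps. ABCC9 (SUR2), the form of heart, skeletal and smooth muscle (ENSSSCG00000000571, chromosome 5, 51536526 to 51673580, plus strand), stood at 35.5 in heart, 22.7 in lung, 22.1 in psoas, 17.7 in spleen, 16.4 in longissimus, 7.09 in adipose tissue, 3.93 in ovary, 3.53 in kidney and 2.98 in liver. It was the top transporter gene in heart and in both skeletal muscles. KCNJ8, which encodes a pore of this channel, stood at 27.1 in heart and at most 5.8 in lung, the next tissue. The pericyte and smooth muscle markers, cells in which ABCC9 is also known, summed to 1010 FPKM in spleen, 531 in ovary and 479 in lung and to 36.8 to 235 in the other tissues, including 173 in heart. ABCC9 was at 17.7 in spleen, 3.93 in ovary and 22.7 in lung. The markers did not share an order, since 5 of the 6 were highest in spleen and RGS5 in heart. RGS5 was at 56.0 in heart, 43.6 in psoas, 21.8 in longissimus, 18.2 in ovary, 4.30 in spleen and 1.58 in lung. The part of those cells in the ABCC9 values was not tested. ABCC8 (SUR1), the form of pancreatic beta cells and brain, did not exceed 0.215 FPKM.

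The ABCG subfamily, which includes sterol pumps, held a liver pair and genes detected in 4 to 9 tissues. ABCG5 and ABCG8, which act as a joint pump that sends sterols into bile, stood close together. ABCG5 (ENSSSCG00000035912, chromosome 3, 96616220 to 96657165, plus strand) was at 13.0 in liver, 0.412 in kidney, 0.237 in adipose tissue, 0.176 in ovary, 0.149 in psoas, 0.124 in heart, 0.103 in lung, 0.0967 in longissimus and 0.0756 in spleen. ABCG8 (ENSSSCG00000008453, chromosome 3, 96593780 to 96616356, minus strand) was at 10.5 in liver, 0.0188 in ovary, 0.0158 in adipose tissue and 0 in heart, spleen, lung, kidney, psoas and longissimus. Both were enriched in liver and their levels on the log2 scale differed by at most 0.50 in any tissue. ABCG2A, the symbol of a gene model that contains the RefSeq gene ABCG2 (BCRP, the breast cancer resistance pump), stood at 20.9 in ovary, 19.2 in lung, 10.6 in kidney, 9.62 in spleen, 6.27 in adipose tissue, 3.95 in liver, 3.13 in heart, 2.46 in psoas and 2.45 in longissimus. ABCG2 covers 0.404 of the length of that model. The model also contains an unnamed same-strand model, which was at 7.16 in ovary, 6.57 in lung and 4.38 in kidney. The ABCG2A values therefore cannot be given to ABCG2 alone. ABCG1, a cholesterol exporter of macrophages, was at 3.53 in spleen and 2.21 in lung, where the macrophage markers summed to 464 and 809 FPKM. The order of the other tissues differed, since liver had a marker sum of 232 with ABCG1 at 0.529, ovary 35.8 with 1.55 and kidney 20.5 with 0.859, and the part of macrophages was not tested. ABCG4 was at 7.9 in liver and 5.72 in heart, but its gene model also contains the RefSeq gene NLRX1, which has no row of its own, so that value cannot be given to ABCG4 alone.

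The 8 detected ABCA genes, most of them lipid exporters, were highest outside liver and kidney as deposited, but ABCA6 and ABCA8 led in liver and ABCA2 in kidney under median-of-ratios scaling. ABCA1, which loads cholesterol onto apolipoprotein A1 and is abundant in macrophages (ENSSSCG00000005423, chromosome 1, 246147515 to 246257380, minus strand), stood at 35.3 in lung, 24.0 in spleen, 23.1 in adipose tissue, 17.0 in kidney, 13.8 in ovary, 10.6 in liver, 7.45 in heart, 1.94 in psoas and 1.43 in longissimus. Lung and spleen led, as they did for ABCG1 in the reverse order, and the muscles were lowest. ABCA2, a lysosomal lipid transporter, stood at 22.5 in ovary, 20.4 in lung, 19.5 in kidney, 17.3 in spleen, 10.8 in adipose tissue, 8.57 in heart, 5.8 in psoas, 3.1 in liver and 2.79 in longissimus. Its lead in ovary passed to kidney after median-of-ratios scaling. ABCA7 was at 5.91 in spleen and 2.31 in ovary. Its gene model (chromosome 2, 77357212 to 77375170, minus strand) overlaps that of CNN2 by 17957 bases on the same strand, nearly its whole length. CNN2 stood at 19.5 and 17.8 in the same tissues. The part of CNN2 reads in the ABCA7 value was not tested. ABCA4, the retinoid transporter of the eye, was at 3.0 in ovary and 0.923 in adipose tissue.

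The ABCA6, ABCA8, ABCA9 and ABCA5 genes lie side by side on chromosome 12 and did not share a tissue pattern. ABCA6 (ENSSSCG00000017256, chromosome 12, 11225408 to 11286018, plus strand) stood at 52.7 in adipose tissue, 49.6 in liver, 11.0 in longissimus, 8.34 in psoas, 8.06 in lung, 7.63 in heart, 3.5 in kidney, 1.02 in ovary and 0.237 in spleen. ABCA8 (ENSSSCG00000026473, chromosome 12, 11374028 to 11447292, plus strand) stood at 16.8 in adipose tissue, 16.7 in liver, 7.31 in kidney, 5.31 in heart, 4.96 in lung, 4.79 in spleen, 4.09 in psoas, 3.25 in longissimus and 3.18 in ovary. ABCA9 (ENSSSCG00000017257, chromosome 12, 11295697 to 11359520, plus strand) stood at 61.3 in adipose tissue, 24.7 in ovary, 19.0 in lung, 11.2 in heart, 8.89 in longissimus, 6.88 in psoas, 6.48 in kidney, 3.6 in spleen and 0.411 in liver. Adipose tissue was the highest tissue for these 3, but ABCA6 and ABCA8 were nearly as high in liver, which led after median-of-ratios or quantile scaling, while ABCA9 was at 0.411 FPKM there. The adipose levels of ABCA6 and ABCA8 were 106% and 101% of those in liver, against 0.257% to 0.469% for the hepatocyte markers. ABCA5 went the other way with 11.9 in psoas, 8.06 in longissimus, 7.63 in kidney, 7.25 in ovary, 6.24 in heart, 4.53 in lung, 3.47 in spleen, 2.44 in adipose tissue and 0.898 in liver, highest in psoas and low in adipose tissue and liver. ABCA12 and ABCA13 were at most 0.0174 in kidney and 0.850 in lung.

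ABCB6, ABCB8 and ABCB10, ABCB genes of mitochondria, were detected in all 9 tissues. ABCB10, an inner membrane transporter linked to haem synthesis, stood at 17.3 in lung, 14.6 in kidney, 13.8 in spleen, 8.68 in liver, 6.2 in ovary, 5.93 in adipose tissue, 4.86 in psoas, 4.16 in heart and 3.08 in longissimus. ABCB8 stood at 10.4 in heart, 8.14 in ovary, 7.66 in adipose tissue, 6.96 in kidney, 6.59 in spleen, 5.8 in psoas, 5.41 in lung, 5.06 in liver and 2.77 in longissimus. ABCB6 was at 8.58 in kidney and 6.7 in psoas, and its gene model contains ZFAND2B, which stood at 16.1 in kidney. For ABCB6 the lead passed from kidney to skeletal muscle under median-of-ratios and quantile scaling, and for ABCB10 it passed from lung to liver under median-of-ratios scaling. ABCB9, a lysosomal peptide transporter, was at 1.12 in lung and 0.923 in spleen.

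Kidney and liver, the organs of excretion, were compared directly on the log2(FPKM + 1) scale with a threshold of 2 (4-fold). Of the 70 genes 50 reached 1 FPKM in either organ. Of these, 15 were higher in kidney (background 11.0% of 12476 genes) and 12 were higher in liver (background 3.83%). The genes on the kidney side were SLC22A2, SLC22A4, SLC22A6, SLC22A8, SLC22A11, SLC22A12, SLC47A1, SLC47A2, SLCO3A1, SLCO4C1, ABCA2, ABCA5, ABCA9, ABCC4 and ABCC5. On the liver side were SLC22A3, SLC22A7, SLCO1A2, SLCO1B3, SLCO2B1, SLC10A1, ABCA6, ABCB1, ABCB4, ABCB11, ABCG5 and ABCG8. The extremes were SLC22A8 at 8.99 and SLCO1B3 at -7.90.

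All 12476 genes together lay towards kidney by a median of 0.87, and the 50 transporter genes by 0.66. Median-of-ratios scaling took the median of all genes to -0.04 and the counts of transporter genes to 9 and 15, and quantile scaling gave 9 and 13. Centring on the median of all genes gave 8 and 14. Under the 4 rescalings tried, 8 of the 15 kidney calls and all 12 liver calls were kept in each. The kidney calls kept were SLC22A2, SLC22A6, SLC22A8, SLC22A12, SLC47A1, SLC47A2, SLCO4C1 and ABCC4. Of the 15 kidney genes 10 were solute carriers and 5 ABC genes, and of the 12 liver genes 6 were of each kind. For 8 of the 50 genes the sign of the difference depended on the scaling.

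**Figure D4:**
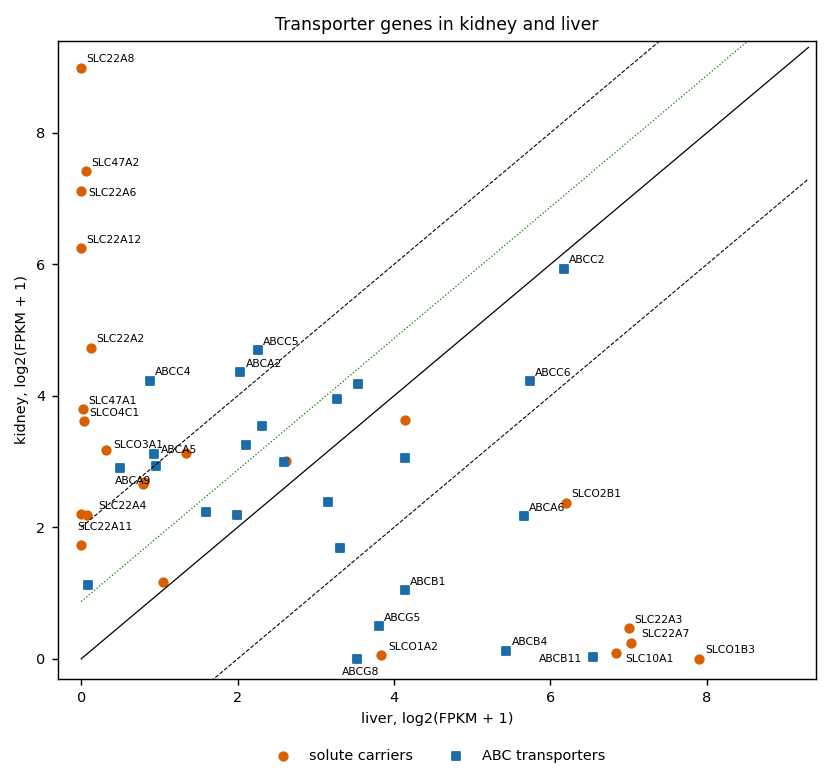
Level in kidney (vertical) against liver (horizontal), both as log2(FPKM + 1), for 48 transporter genes at 1 FPKM or more in either; the solid line marks equal levels, dashed lines a 4-fold difference and the green dotted line the median of all genes (0.87). SLC22A8, SLC47A2 and SLC22A6 lie along the kidney axis, SLCO1B3, SLC22A7, SLC10A1 and ABCB11 along the liver axis, and ABCC2 near the solid line.

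Heart was compared with both skeletal muscles at 4-fold. Of 28 transporter genes compared, SLCO3A1 alone was higher in heart by 4-fold against each muscle (background 3.01% of 11145 genes), at 17.5 FPKM against 2.89 in psoas and 1.35 in longissimus. No transporter gene was higher in both muscles by that measure (background 1.91%). Both counts are close to the shares of all genes. SLC47A1 and ABCB1 had mean differences of 2.06 and 2.05 on the log2 scale but did not pass against each muscle. The SLCO3A1 call was lost under quantile scaling and under centring on the median of all genes, which lay 0.41 towards heart.

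Psoas major and longissimus dorsi are both skeletal muscles, the pair of tissues most alike by their labels. Of 26 transporter genes compared, 2 were higher in psoas by 2-fold (background 4.66% of 10513 genes) and none in longissimus (2.09%). Among them was ABCB6, at 6.70 FPKM in psoas against 2.34 in longissimus with a log2 difference of 1.20. The median of all genes lay 0.27 towards psoas with a robust SD of 0.36, and centring on it left 1 call. A share of 2 in 26 is close to the background of this pair.

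Several of the genes lie next to each other, and neighbours ranged from near copies in pattern to opposites. SLC22A3 and SLC22A2 on chromosome 1, with a gap of 81.8 kb and on opposite strands, were highest in liver and in kidney. SLC22A12 and SLC22A11 (22.5 kb apart) and SLC22A8 and SLC22A6 (4.15 kb apart) on chromosome 2 were kidney genes, at 74.7, 3.59, 506 and 138 FPKM there, and none exceeded 0.0682 outside kidney. SLCO1A2 and SLCO1B3 on chromosome 5 (7.21 kb apart, opposite strands) were both liver genes, whereas SLCO1C1, a further 28.2 kb away, was listed at 0 in liver. ABCG8 and ABCG5 on chromosome 3 run in opposite directions from starts that overlap by 137 bases. ABCC6 and ABCC1, 4.17 kb apart on chromosome 3, differed most in liver, at 52.3 against 0.946 FPKM, and were at 17.2 and 28.1 in ovary. ABCB1 and ABCB4 on chromosome 9, 25.3 kb apart, were both highest in liver, but ABCB1 was at 4.50 to 8.03 in heart, lung and spleen, where ABCB4 was at most 0.0179.

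**Figure D5:**
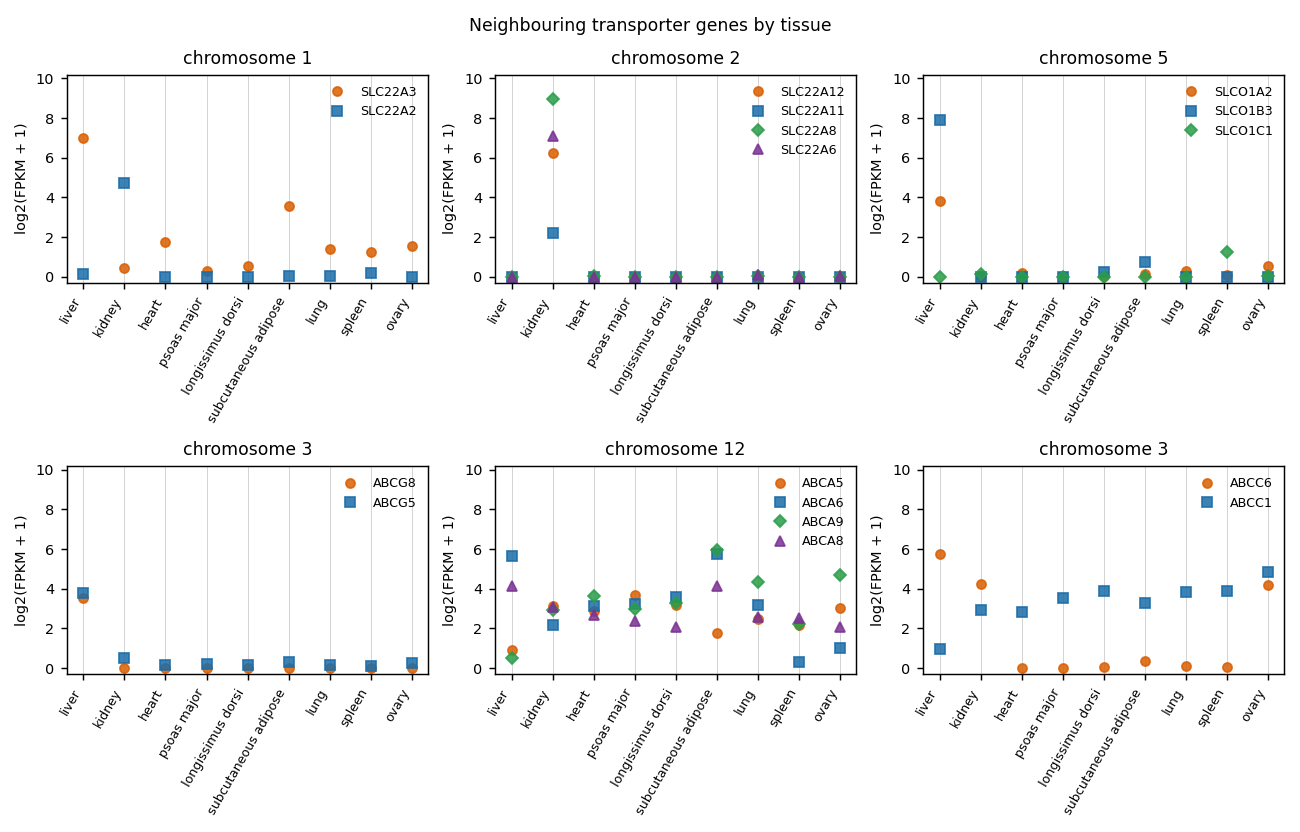
Levels as log2(FPKM + 1) (vertical) of neighbouring transporter genes in the 9 tissue libraries (horizontal), 1 panel per gene group and 1 symbol per gene. The kidney genes of chromosome 2 and the ABCG8 and ABCG5 pair overlie each other outside 1 tissue, while ABCC6 and ABCC1 and the 4 ABCA genes separate, most of all in liver.

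Genes that work with the transporters were counted on fixed lists, which were chosen with earlier results of these data known. Of 10 bile acid synthesis genes 8 were detected, and 7 of these were highest in liver (background 5.68%), among them SLC27A5 at 249, AKR1D1 at 193 and CYP27A1 at 187 FPKM. The exception was CYP7A1, the first enzyme of the pathway, at 39.6 in lung and 6.85 in liver. Of 14 matched partners of proximal tubule transport 12 were highest in kidney (13.0%), with LRP2 at 537, SLC34A1 at 526 and PDZK1, a scaffold that binds urate and cation carriers, at 468. SLC51A, a subunit of the basolateral bile acid exporter, was between 4.25 and 8.37 in all 9 tissues with heart highest, and SLC2A9 was highest in lung at 2.06.

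Of 12 nuclear receptors and factors that control transporter genes, 5 were highest in liver (background 5.68%) and 3 in kidney (13.0%). HNF4A, a master factor of hepatocytes and proximal tubule, stood at 94.3 in kidney and 50.0 in liver and at most 0.515 elsewhere. The sterol sensor NR1H3 was highest in lung at 93.3, NR1H2 in ovary at 43.9, RXRA in adipose tissue at 48.2 and ESRRA in heart at 56.8. The bile acid receptor NR1H4 (FXR), named here after its values were seen, stood at 25.1 in liver, 16.6 in kidney, 10.8 in ovary and at most 0.757 elsewhere. Those are also the tissues in which ABCC2 and ABCC6 were detected. Other genes did not share them. NR0B2 of the same list was at 13.5 in liver, 0.0821 in kidney and 0.0533 in ovary. ABCB11 was at 92.0, 0.0227 and 0.0294 in these tissues. A link of NR1H4 to any of these genes was not tested.

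Of 10 matched cholesterol and HDL genes 4 were highest in liver (background 5.68%), led by the apolipoproteins APOE at 8863 and APOA1, the acceptor of ABCA1, at 2157. Lung was highest for NPC2 at 441, NPC1 at 14.3 and STARD3 at 11.0, ovary for PLTP at 251, and adipose tissue for SCARB1 at 34.4. Of 7 carnitine genes 4 were highest in kidney (background 13.0%), led by CPT1A at 102. The others were CPT1B at 155 in heart, CRAT at 108 in longissimus and CPT2 at 19.8 in liver.

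Of 9 haem synthesis genes 3 were highest in liver (background 5.68%), among them ALAD at 173 and ALAS1 at 47.4. Spleen was highest for 2, among them ALAS2 at 38.5, which is near the 19.2% of all genes highest there. Kidney was highest for 2 (background 13.0%), UROD at 10.1 and PPOX at 16.1. FECH was highest in heart at 21.6 and UROS in skeletal muscle, with 35.7 in longissimus. Of 6 prostaglandin genes PTGS1 at 21.6 and PTGS2 at 3.91 were highest in lung (background 15.1%). HPGD, which degrades prostaglandins after uptake, stood at 77.2 in spleen and 70.7 in lung, PTGDS at 61.8 in ovary, PTGES at 21.9 in kidney and PTGIS at 10.5 in adipose tissue.

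A further list held 11 ABC genes of other subfamilies or with symbols that do not name the family, such as TAP1, TAP2 and CFTR. No class was highest for more than 3 of them. ABCD3, a peroxisomal transporter, was at 74.1 in liver and 69.9 in kidney, and ABCF1 was at 56.2 in ovary. The peptide transporter TAP1 was at 53.2 in spleen, and CFTR, the chloride channel of cystic fibrosis, at 11.9 in lung. ABCD2 was enriched in adipose tissue at 4.82, and it was the single gene of that list to pass the 5-fold rule.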

How the data were processed

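The deposited table holds 1 row per gene and 1 column per library, and its FPKM values were made by the authors. Per the submitters' processing notes TopHat2 2.1.0, StringTie 1.2.2 and the Sscrofa11.1 pig assembly were used. The sources used here do not state the roles of those tools, the annotation release, the strand setting or any filter. The unit was inferred from the values, so FPKM is a reading of the deposited numbers. RNA was extracted with TRIzol and made into TruSeq libraries, per the labels' protocols.

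Symbols were matched by Ensembl identifier for 65 of the 70 transporter genes. The other 5 (ABCB1, ABCB4, ABCC4, SLCO1B3 and SLC22A20) were matched by overlap of at least 0.5 of the longer gene with a RefSeq gene on Sscrofa11.1, and their overlaps were 0.959 to 0.998. The row at SLC10A5 fell just outside at 0.489 (2.89 FPKM in liver, 1.33 in kidney). Coordinates are 1-based on Sscrofa11.1. 1 gene of the ABCA subfamily is left out, and a few other genes enter the counts but are not reported here.

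Folds were taken on the FPKM + 1 scale. Apart from these, every gene at 1 FPKM or more in a tissue is named with its highest and next tissue, genes at 10 FPKM or more or enriched in a class are given in all 9 tissues, and the rest are listed by name. Fellow genes are the 3 highest of each list and those highest outside the list's main tissue. The members and lists were chosen with earlier results of these data known. Median-of-ratios, quantile and equal-sum scaling, other pseudocounts, thresholds and filters were tried. No test was run, because each tissue has 1 library. The code was tested on simulated data. Python 3.11.15, numpy 2.4.6, pandas 2.3.3 and matplotlib 3.10.9 were used.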

Additional observations from a re-analysis of the deposited data

Results flagged for a closer look

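The pooled library, which enters no comparison, held 2 transporter genes above their level in every single tissue at 0.5 FPKM or more. SLCO1C1, the thyroxine carrier, stood at 2.18 FPKM in the pool and at 1.35 in spleen, its highest tissue. ABCC8, the sulfonylurea receptor of beta cells and brain, stood at 0.507 FPKM in the pool and at 0.215 in lung, its highest tissue.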

How the results depend on the processing

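Of 242 alternative values 202 were within 1.5 times the value reported and 40 were not. The 202 include counts that were 0 both as reported and under the alternative, such as most of those for enrichment outside liver and kidney. Such counts have no ratio and say little about stability. Of the 14 enriched genes 10 kept their class under all 10 alternatives. ABCB4 was lost at 10-fold, ABCG8 with a pseudocount of 5, and ABCG5 and SLCO1A2 under both. A pseudocount of 0.1 raised the enriched genes from 14 to 18, with 1 in spleen (SLCO1C1), 1 in ovary (SLC10A4) and 7 in place of 5 in kidney (SLC10A2 and SLC22A11 added). Genes higher in kidney than liver went from 15 to 5 with a pseudocount of 5, to 9 under median-of-ratios and under quantile scaling, to 24 at 2-fold and to 8 at 8-fold. Centring on the median of all genes, chosen after seeing the data as was naming by Ensembl identifier alone, gave 8. Genes higher in psoas went from 2 to 5 with a pseudocount of 0.1, to 0 with 5 and at 4-fold, and to 1 under median-of-ratios scaling, quantile scaling and centring. Genes higher in heart went from 1 to 5 with a pseudocount of 0.1, to 6 at 2-fold, and to 0 with a pseudocount of 5, quantile scaling, 8-fold and centring. Over all genes, the share of 4-fold calls towards kidney was 74.2% as deposited, 43.9% under median-of-ratios scaling, 48.4% under quantile scaling, 78.9% at an equal sum and 38.7% centred. For heart these were 61.2%, 46.9%, 46.7%, 61.5% and 43.5%. The share of 2-fold calls towards psoas was 69%, 36.7%, 42.7%, 83.9% and 36.5% in the same order. At 0.1 FPKM detection gave 42 genes in psoas, 40 in longissimus and 53 in adipose tissue. At 5 FPKM it gave 16 in heart, 17 in spleen, 21 in lung, 10 in psoas, 6 in longissimus, 16 in adipose tissue and 18 in ovary. The number of genes highest in a class moved under median-of-ratios scaling to 2 in lung, 5 in skeletal muscle, 2 in adipose tissue and 5 in ovary, under quantile scaling to 4 in skeletal muscle and 2 in adipose tissue, and to 1 in skeletal muscle at an equal sum. With a minimum of 5 FPKM it was 3 in spleen, 1 in skeletal muscle and 5 in ovary. The highest class was unchanged under the 3 scalings for 42 of 59 genes. The cause of these shifts was not tested.

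No paired analysis was possible because each tissue has 1 library and no replicate number. For the same reason leaving out a replicate was not done. Differences between tissues therefore include differences between animals, dissections and libraries. Depth was inferred from the most frequent low value of short genes, and low values rest on few fragments.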
